A study of Mus musculus with 6 samples.

Results

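The genes described here, with few exceptions, encode protein subunits of the cytosolic and the mitochondrial ribosome. They are the 133 rows, of 30768 genes in the deposited table, whose KEGG annotation names the Ribosome pathway. By symbol they divide into 88 cytosolic genes (symbols such as Rpl, Rplp and Rps, including 4 retrotransposed or pseudogene copies), 43 mitochondrial genes (Mrpl and Mrps) and 2 rows with other symbols. Those 2 are Rsl24d1 and Gm4925, of which Gm4925 is annotated as a pseudogene. RNA was sequenced from bEnd.3 cells, an immortalized endothelial line from mouse brain, in 3 libraries of cells given a miR-423-5p mimic to raise that microRNA and in 3 libraries of cells given a control mimic. The labels state neither the dose of the mimics, nor the time until harvest, nor whether replicate libraries were grown as separate cultures. The p-values therefore rest on variation among these 6 libraries, and that variation may be technical.

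A cytosolic ribosome is built from a small subunit, which reads the messenger RNA, and a large subunit, which joins amino acids and carries a stalk that recruits elongation factors. Its protein genes are among the most highly transcribed of any growing cell, and many of their mRNAs begin with a run of pyrimidines through which the mTOR pathway controls their translation. Mitochondrial ribosomes are a separate set of particles that translate the few mRNAs of the mitochondrial genome, and all of their proteins are encoded in the nucleus and imported.

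The mature microRNA that the mimic stands for was not measured, since the libraries were made from polyadenylated RNA. It is shown because its seed, in capitals (bases 2 to 8), defines the match that was searched for in the members' mRNAs. In RefSeq on GRCm38.p6 its gene segment lies at chr11:77078122-77078144 on the minus strand.
miR-423-5p: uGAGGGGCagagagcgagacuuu

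Few ribosomal protein genes had a match to that seed in their annotated 3' UTR. The letters GCCCCTC were searched on the mRNA strand in each tested gene's 3' UTR, taking the longest that GENCODE M21 annotates. They occurred in 3 of 83 cytosolic genes (3.61%) and in 2 of 43 mitochondrial genes (4.65%), against 13.29% of 13751 other genes. The 3' UTRs also differed in length, with a median of 140 nt in cytosolic and 387 nt in mitochondrial genes, against 1140 nt in the other genes. The match began at base 736 of 1647 in Rpl22, 1548 of 1955 in Rpl9 and 846 of 4728 in Rps15a. It began at base 240 of 326 in Mrpl24 and 957 of 2976 in Mrps5. Whether the mRNAs of these cells extend that far was not tested. The 5 matches are printed with the bases around them, the match in capitals, because these are the tested members whose longest annotated 3' UTR holds it.
Rpl22: ccagtaggtggaGCCCCTCcaagcccaggg
Rpl9: gacagtgaaggaGCCCCTCctgtgtaggct
Rps15a: agaacaacagaaGCCCCTCggacttgtctg
Mrpl24: gggagcaagaagGCCCCTCtgttcttttcc
Mrps5: ggttaggttcctGCCCCTCccctcatgccc

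None of these 5 genes passed the test between the groups, where 9.09% of all genes tested rose and 7.21% fell. The estimate was higher with the mimic for 4 of them, and for 82 of 85 cytosolic and 29 of 43 mitochondrial genes tested. The log2 fold changes, miR-423-5p over control, were 0.49 for Rpl9, 0.35 for Rps15a, 0.16 for Rpl22, 0.12 for Mrps5 and -0.19 for Mrpl24. A match is a description of the sequence and not a functional site. At the other end of the mRNA, at least 1 annotated transcript of 24 of 83 cytosolic genes (28.9%) began with C followed by at least 4 C or T bases. The same start was found in 5 of 43 mitochondrial genes (11.6%) and in 5.7% of the other genes. A looser measure was a run of at least 8 C or T bases beginning in the first 20 nt. It was met by 38 of 83 cytosolic genes (45.8%), 8 of 43 mitochondrial genes (18.6%) and 18.6% of the other genes. Both measures use annotated starts, and the starts used in these cells were not measured.

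The libraries held 63217696 to 78456344 counts each. Over the whole table, edgeR's quasi-likelihood test with Benjamini-Hochberg adjustment called 1646 of 18103 genes tested (9.09%) higher and 1305 (7.21%) lower with the miR-423-5p mimic at an adjusted p under 0.05, and the median log2 fold change was -0.02. Scaling to total counts in place of TMM moved that median to -0.18 and the calls to 874 higher and 2569 lower. Endothelial markers other than Cldn5 were present in every library: their summed level was 4668 to 4724 CPM in the miR-423-5p libraries and 2699 to 3005 CPM in the control libraries, 7 of 10 rose, and Cldn5 was under 1 CPM in all 6 libraries. CPM here are counts scaled to the TMM-adjusted library total. Control 3 stood apart. Of 7 macrophage markers, Adgre1, Csf1r, Itgam, Ptprc, Aif1 and Cx3cr1 had 25.1, 21.8, 12.1, 7.01, 4.34 and 1.39 CPM there, and 1.61 CPM or less in each of the other 5. Of 6 neuron markers, Tubb3, Stmn2, Syp, Snap25 and Rbfox3 had 24.5, 12.6, 8.99, 8.84 and 0.888 CPM there and under 1 CPM elsewhere. The summed macrophage level was 707 to 987 CPM in the miR-423-5p libraries and 578 to 826 CPM in the control libraries, most of it Cd68, and none of the 3 tested markers was called. The summed neuron level was 122 to 148 CPM in the miR-423-5p libraries and 41.7 to 94.6 CPM in the control libraries, most of it Nefl in every library but control 3, and Nefl rose. Fibroblast and pericyte markers were lower with the mimic (18.1 to 25.2 CPM in the miR-423-5p libraries against 76.5 to 183 CPM in the control libraries, 5 of 9 called), with Lum at 0 in miR-423-5p 1 and 2. The part of these markers in the ribosomal results was not tested. In RNA from bulk cells, fewer cells of a type and less RNA per cell cannot be told apart.

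Cytosolic ribosomal protein mRNAs made up a large and variable part of the libraries. Their 88 rows took 5.47%, 4.06% and 5.33% of all counts in miR-423-5p libraries 1, 2 and 3, and 4.42%, 4.14% and 4.24% in control libraries 1, 2 and 3. The groups overlap, because miR-423-5p 2 lies below all 3 controls while the other two miR-423-5p libraries lie above them. The mean was 4.95% ± 0.779 with the miR-423-5p mimic and 4.27% ± 0.146 with the control mimic (SD, n = 3 each). The 43 mitochondrial rows took 0.241%, 0.192% and 0.232% of the counts in the miR-423-5p libraries and 0.239%, 0.230% and 0.224% in the control libraries. Here too miR-423-5p 2 was the lowest of the 6, and the other five lay close together. The table also lists 226 pseudogene rows of cytosolic ribosomal proteins outside the term, which took 0.265%, 0.196% and 0.298% of the counts in the miR-423-5p libraries and 0.211%, 0.214% and 0.211% in the control libraries. The handling of reads that match several such copies is not stated in the labels, so the level of each gene with near-identical copies is uncertain.

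**Figure D1:**
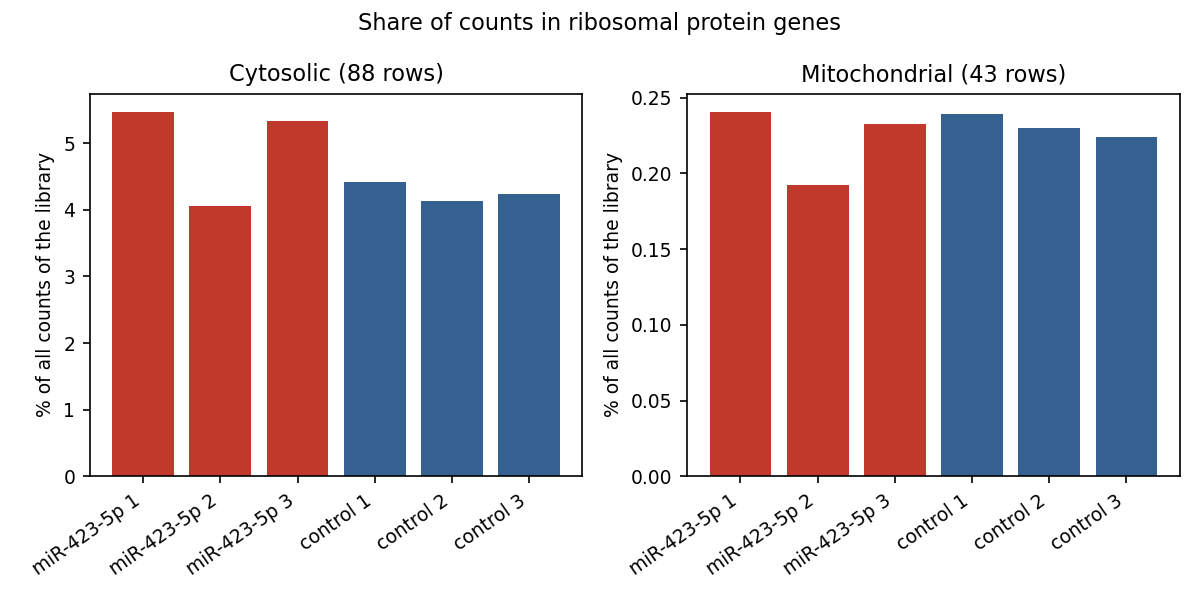
Share of all counts of a library in the 88 cytosolic (left) and 43 mitochondrial (right) rows, in %, with 1 bar per library, miR-423-5p in red and control in blue. The cytosolic share is 5.47% and 5.33% in miR-423-5p 1 and 3 and 4.06% in miR-423-5p 2, against 4.14% to 4.42% in the controls.

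Of the 88 cytosolic genes, 85 had enough counts to be tested. With the miR-423-5p mimic 5 of them rose (5.88%, against 9.09% of all genes tested) and 0 fell (against 7.21%), in edgeR's quasi-likelihood test at an adjusted p under 0.05. At an unadjusted p under 0.05, 38 were higher and 0 were lower, against 16.7% and 16% of all genes tested. DESeq2, which gave a p for all 88 cytosolic genes, called 34 higher and 0 lower. Of the 20807 genes to which it gave an adjusted p, 10.5% were higher and 8.84% lower. The estimate was above 0 for 82 of the 85, with a median log2 fold change of 0.39 (range -0.32 to 0.72), beside -0.02 over all genes. The median was 0.23 with total-count scaling, beside -0.18 over all genes. For 14 of the 85 every miR-423-5p library lay above every control, and for 0 the reverse held (18.8% and 19.6% of all genes tested). The count of calls rested on single libraries. It was 59 of 86 tested without library miR-423-5p 2, where 12.6% of all genes rose. It was 0 when miR-423-5p 1, miR-423-5p 3 or control 2 was left out (4.82%, 3.91% and 3.04% of all genes), 1 without control 1 (3.88%) and 5 without control 3 (6.18%). With total-count scaling or with no filter on low counts it was 1 (4.83% and 3.55% of all genes), and limma on log2(FPKM + 1) gave 0 (6.55%), as did a pseudocount of 0.1 (6.5%). With DESeq2 size factors in edgeR, 6 cytosolic genes rose (9.19% of all genes) and 0 fell (7.05%).

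The members' levels show which libraries carried the difference. Relative to the mean of the 3 controls, the median cytosolic member stood at a log2 ratio of 0.52, 0.02 and 0.56 in miR-423-5p 1, 2 and 3, and at 0.09, -0.01 and -0.10 in controls 1, 2 and 3. Thus the median member in miR-423-5p 2 was at the level of the controls. This library had the lowest level of its group for 84 of 85 members, Rpl17 being the exception. For mitochondrial members the medians were 0.25, -0.15 and 0.17 in the miR-423-5p libraries and 0.04, -0.01 and -0.06 in the control libraries, and miR-423-5p 2 was the lowest of its group for 40 of 43.

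**Figure D2:**
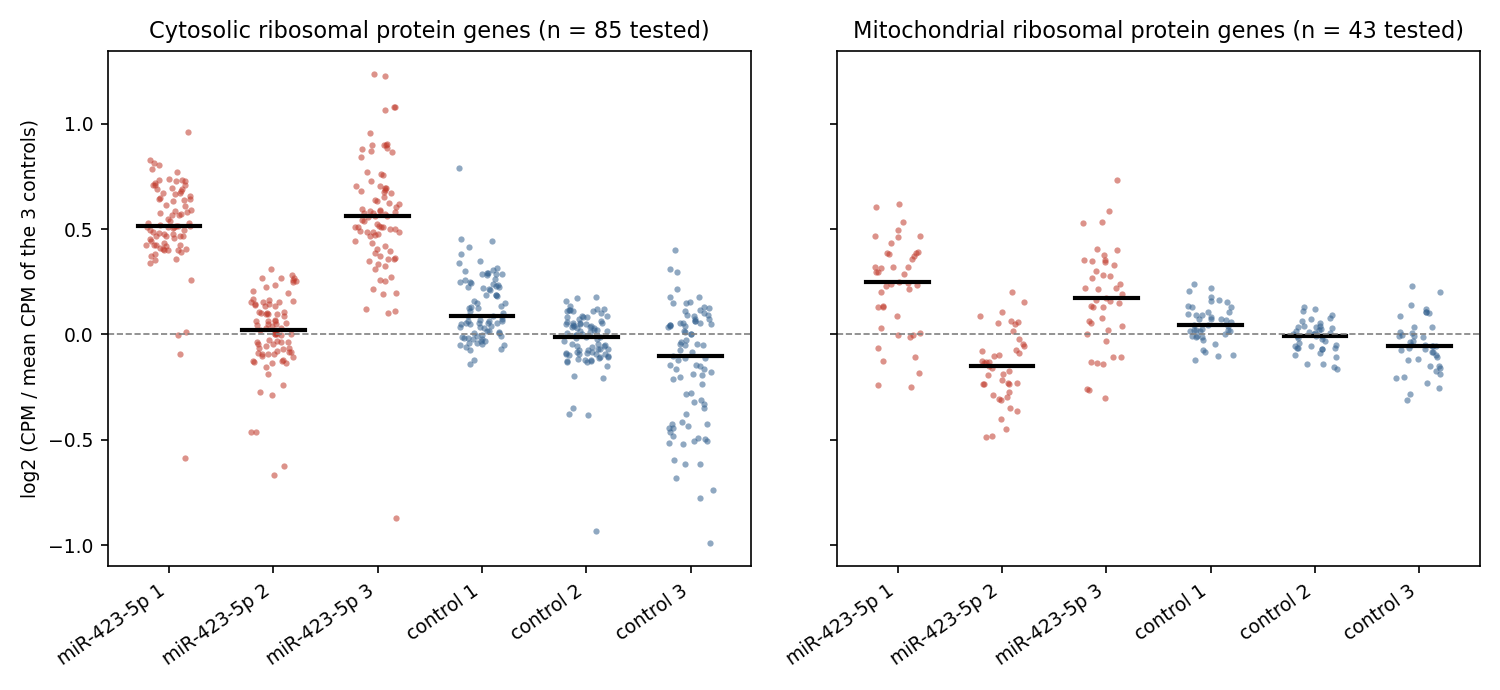
Each point is a tested member in a library, given as log2 of its CPM over the mean CPM of the 3 controls, for cytosolic (left, n = 85) and mitochondrial (right, n = 43) genes; black lines are medians. The cytosolic medians are 0.52 and 0.56 in miR-423-5p 1 and 3 but 0.02 in miR-423-5p 2.

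Among small subunit genes, leaving out paralogs and copies, 3 of 32 rose (9.38%, near the 9.09% of all genes tested) and 0 fell (against 7.21%), all 32 estimates were above 0, and the median log2 fold change was 0.45. Rps4x (ENSMUSG00000031320, chrX:102184941-102189394 on GRCm38, minus strand) encodes a small subunit protein from the X chromosome. It had 1605, 1262 and 1557 CPM in miR-423-5p libraries 1, 2 and 3 and 1063, 1046 and 999.6 CPM in control libraries 1, 2 and 3. All miR-423-5p libraries lay above all controls, and the log2 fold change was 0.51 ± 0.106 (SE; adjusted p = 0.0186 in edgeR), or 1.42-fold. Rps2 (ENSMUSG00000044533, chr17:24718116-24721926, plus strand), which lies near the entry of the mRNA channel, had 3247, 2515 and 2977 CPM in the miR-423-5p libraries and 2057, 2045 and 2166 CPM in the control libraries. Its groups did not overlap either, with a log2 fold change of 0.48 ± 0.108 (SE; adjusted p = 0.0236 in edgeR). Rpsa (ENSMUSG00000032518, chr9:120127689-120132369, plus strand), a small subunit protein also known as the laminin receptor precursor, had 3151, 2302 and 2959 CPM in the miR-423-5p libraries and 1811, 1870 and 2226 CPM in the control libraries. Its lowest miR-423-5p library was just above its highest control, and the log2 fold change was 0.51 ± 0.140 (SE; adjusted p = 0.0455 in edgeR).

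The small subunit genes with the largest estimates had short coding regions and variable libraries, and were not called. Rps28, with a log2 fold change of 0.72 ± 0.311 (SE), had 100.4, 60.7 and 146 CPM in the miR-423-5p libraries and 76.2, 64.7 and 45.8 CPM in the control libraries. In it, miR-423-5p 2 was lower than 2 of the 3 controls.

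In the stalk, Rplp0 rose, and Rplp1 and Rplp2 did not pass the test. Rplp0 (ENSMUSG00000067274, chr5:115559467-115563727, plus strand), the protein that anchors the stalk to the large subunit, had 2175, 1722 and 2154 CPM in the miR-423-5p libraries and 1437, 1388 and 1507 CPM in the control libraries. The groups did not overlap, with a log2 fold change of 0.48 ± 0.109 (SE; adjusted p = 0.0239 in edgeR). Rplp1, one of the acidic proteins that bind Rplp0, had 947, 600 and 986.5 CPM in the miR-423-5p libraries and 628, 579.6 and 396 CPM in the control libraries. Its miR-423-5p 2 value was within the control range, and its log2 fold change of 0.66 had an edgeR adjusted p of 0.0899. Rplp2 had a log2 fold change of 0.46 (edgeR adjusted p = 0.157).

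Among the 44 large subunit genes, again without paralogs and copies, 1 rose (2.27%, against 9.09% of all genes tested), 0 fell (against 7.21%), 42 estimates were above 0 and the median log2 fold change was 0.36. The gene that rose was Rpl7 (ENSMUSG00000043716, chr1:16101295-16104662, minus strand), with 1082, 925 and 1035 CPM in the miR-423-5p libraries and 814, 800.0 and 809 CPM in the control libraries. Its controls were nearly identical and its groups did not overlap, at a log2 fold change of 0.33 ± 0.084 (SE; adjusted p = 0.0369 in edgeR). Rpl5, which carries a small ribosomal RNA into the large subunit and can bind Mdm2, came closest to the threshold without passing it. It had 801, 635 and 779.9 CPM in the miR-423-5p libraries and 576, 589.5 and 557 CPM in the control libraries, without overlap (log2 fold change 0.36, edgeR adjusted p = 0.0505).

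**Figure D3:**
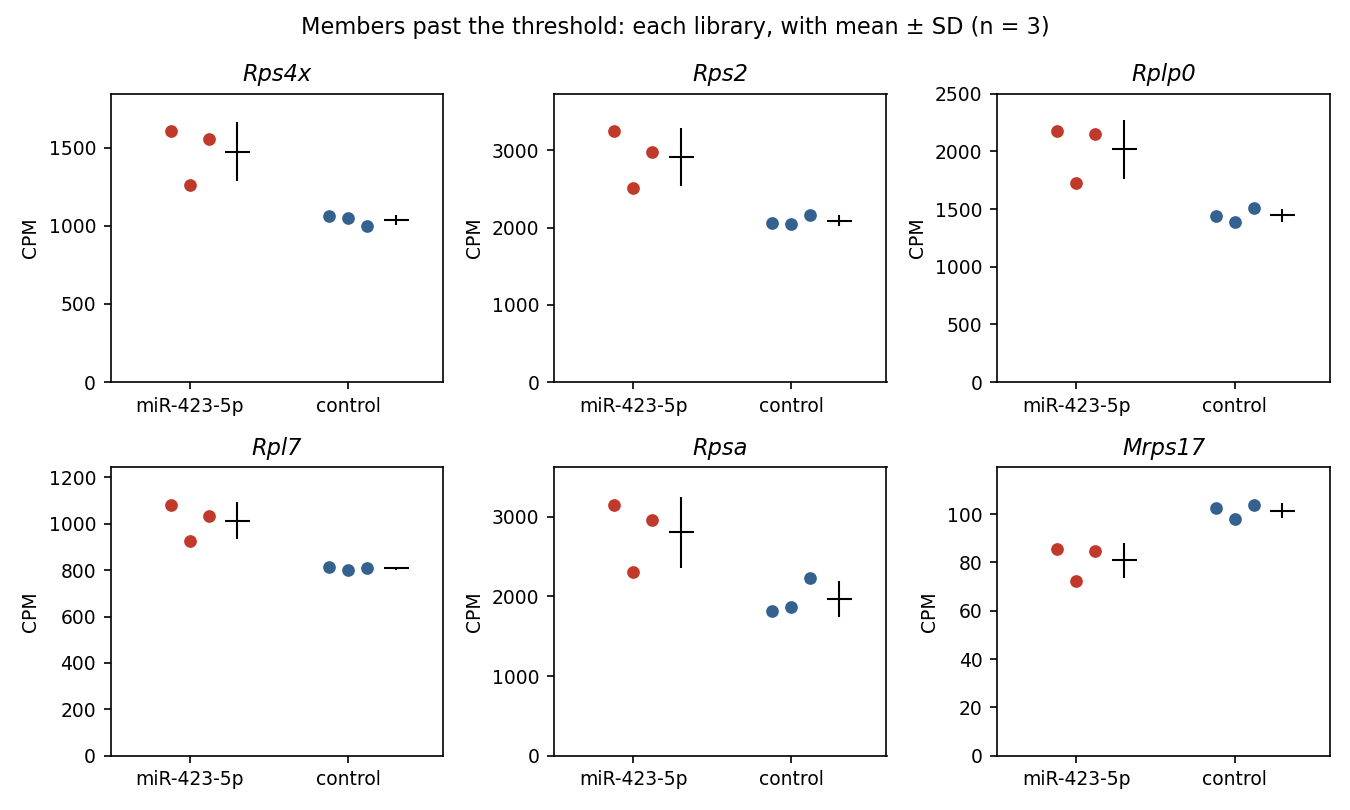
CPM of the 6 members past the threshold, with 1 point per library, the miR-423-5p group in red at left and the control group in blue at right of each panel, and the mean with SD (n = 3) in black. The middle red point of each panel is miR-423-5p 2 and is the lowest of its group, for example 1262 CPM for Rps4x beside 1605 and 1557 CPM.

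A few cytosolic members did not follow the rest. Rpl17, a protein that lines the peptide tunnel, had 128, 229 and 105 CPM in the miR-423-5p libraries and 245, 151 and 181 CPM in the control libraries. It was high in miR-423-5p 2 and control 1, its groups overlapped, and its log2 fold change was -0.32 ± 0.295 (SE; adjusted p = 0.497 in edgeR). Rpl7a had the largest spread within groups of the tested cytosolic members, with 952, 393.5 and 811 CPM in the miR-423-5p libraries and 627, 285 and 716 CPM in the control libraries. It was low in the library numbered 2 of both groups, and its log2 fold change of 0.41 ± 0.398 (SE) had an edgeR adjusted p of 0.525. Next in spread were Rps27rt, Rpl39, Rps29 and Rps12, whose SD of log2 CPM within groups was 0.67, 0.55, 0.54 and 0.52, and none was called. The remaining estimates below 0 were -0.15 for Rpl23a and -0.02 for Rps27l.

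Paralogs and copies gave no calls. Rpl22l1, the paralog of Rpl22, had 37.4, 28.5 and 44.0 CPM in the miR-423-5p libraries and 29.4, 26.7 and 14.7 CPM in the control libraries, which overlap, and its log2 fold change was 0.63 (edgeR adjusted p = 0.145). Rpl36al had 282, 191 and 295 CPM in the miR-423-5p libraries and 192, 177 and 150.1 CPM in the control libraries, with a log2 fold change of 0.57 (edgeR adjusted p = 0.0626). Rpl3l, the form known from striated muscle, was not tested and had 9, 7 and 81 counts in the miR-423-5p libraries and 5, 0 and 61 counts in the control libraries. Rpl39l had no count in any miR-423-5p library and 8, 0 and 4 counts in the control libraries. The other untested member, the copy Rpl31-ps12, had 2 to 13 counts per library. The tested copies Rps27rt, Rpl34-ps1 and Rpl37rt had log2 fold changes of 0.58, 0.52 and 0.34, with none called.

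Levels per length spanned a wide range within the cytosolic set. Mean FPKM over the 6 libraries ran from 13.8 to 1261, with a median of 224. The highest were Rplp1 at 1468 ± 325 FPKM with the miR-423-5p mimic and 1055 ± 215 FPKM with the control mimic, and Rps2 at 1386 ± 151 and 1131 ± 69.7 FPKM in the same groups (SD, n = 3 each). These neighbours do not differ beyond their spread. Rplp0, Rpl8, Rps3a1 and Rps15 followed with means over all libraries of 960.0, 874, 873 and 871 FPKM, the last 3 within their spread of each other. The lowest tested members were Rpl22l1, Rpl37rt and Rpl21, at means of 13.8, 14.0 and 24.5 FPKM.

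Spread between libraries of a group was larger for the median cytosolic member than for the median well-counted gene. The median SD of log2 CPM within groups was 0.27 for cytosolic and 0.18 for mitochondrial members, against 0.13 for the 7896 tested genes with 20 CPM or more. The deviation of single libraries varied with coding length (the longest in GENCODE M21). For the 10 cytosolic genes with coding regions up to 300 nt, the median log2 ratio of miR-423-5p 2 to the mean of miR-423-5p 1 and 3 was -0.83, and that of control 3 to the mean of controls 1 and 2 was -0.64. For the 20 genes of 600 to 900 nt the same ratios were -0.40 and 0.10. The shortest members were thus low, at the median, in both libraries, and the longer ones in miR-423-5p 2 but not in control 3. Genes outside the set, of 5 CPM or more, had medians of -0.36 and -0.13 up to 300 nt (175 genes). From 600 to 900 nt theirs were -0.11 and -0.07 (1347 genes). Across the 83 cytosolic genes with a coding length, Spearman's rho with length was 0.62 for the first ratio and 0.68 for the second, and -0.55 for the log2 fold change between the groups; all points share the same 6 libraries. For the 10004 other genes of 5 CPM or more these were 0.44, 0.19 and -0.16. The median log2 fold change was 0.64 for the 10 shortest cytosolic genes and 0.31 for those of 600 to 900 nt. For the other genes of these lengths it was 0.19 and 0.10. All 5 called cytosolic genes had coding regions of 792 nt or more. The part of length or RNA quality in the difference between the groups was not tested.

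**Figure D4:**
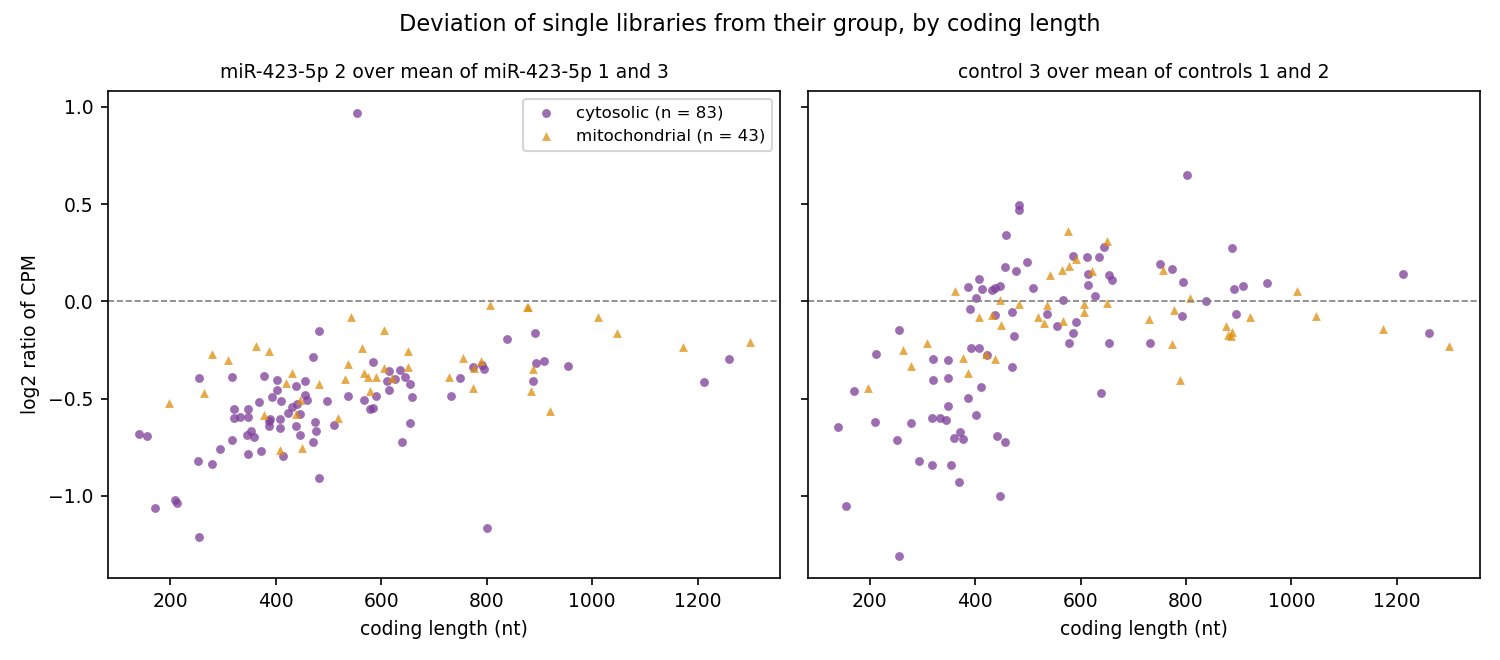
Coding length in nt (x) against the log2 ratio of CPM of a library to the mean of the other two libraries of its group (y), for miR-423-5p 2 (left) and control 3 (right); circles are cytosolic (n = 83) and triangles mitochondrial (n = 43) genes. The median of cytosolic genes up to 300 nt is the lowest of the length classes in both panels, at -0.83 and -0.64. Single longer genes also lie low, such as Rpl7a (801 nt) at -1.16 in the left panel.

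Mitochondrial ribosomal protein genes gave 1 call, a decrease, among 43 genes tested. With the miR-423-5p mimic 0 rose (9.09% of all genes did) and 1 fell (2.33%, against 7.21% of all genes) in edgeR's quasi-likelihood test; at an unadjusted p under 0.05, 4 were higher and 2 lower (16.7% and 16% of all genes tested), and DESeq2 called 1 higher and 1 lower (10.5% and 8.84%). The estimate was above 0 for 29 and below 0 for 14, with a median log2 fold change of 0.10 (range -0.33 to 0.52) that turned to -0.06 with total-count scaling. For 3 genes every miR-423-5p library lay below every control, and for 0 the reverse held (19.6% and 18.8% of all genes tested). When miR-423-5p 2 was left out, 12 of the 43 were called higher, where 12.6% of all genes were. With limma on FPKM 3 of the 43 were called lower at either pseudocount, where 19.2% (pseudocount 1) and 18.9% (0.1) of all genes were. The difference in response between the cytosolic and mitochondrial sets was not tested.

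Mrps17 (ENSMUSG00000034211, chr5:129715497-129722556, plus strand), a small subunit protein, was the member that fell. It had 85.4, 72.5 and 84.8 CPM in the miR-423-5p libraries and 103, 97.8 and 104 CPM in the control libraries. The groups did not overlap, and the log2 fold change was -0.33 ± 0.086 (SE; adjusted p = 0.0397 in edgeR). The call was kept when miR-423-5p 2 was left out, and was lost when any of the other 5 libraries was left out and with no filter on low counts. The other members without overlap were Mrpl9 and Mrps2, both uncalled. Mrpl9 had 52.6, 48.8 and 46.5 CPM in the miR-423-5p libraries and 56.8, 57.4 and 57.7 CPM in the control libraries (log2 fold change -0.22, edgeR adjusted p = 0.098). Mrps2 had 59.3, 59.1 and 61.2 CPM in the miR-423-5p libraries and 68.1, 70.3 and 63.4 CPM in the control libraries (log2 fold change -0.17, edgeR adjusted p = 0.159).

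The largest positive mitochondrial estimates were of genes with short coding regions, but that of Mrps17, which fell, was also short at 363 nt. The median of the 43 genes was 579 nt. Mrpl33, with a coding region of 198 nt, had 202, 147 and 219 CPM in the miR-423-5p libraries and 153, 135 and 106 CPM in the control libraries. The miR-423-5p 2 value lay within the controls, and the log2 fold change was 0.52 ± 0.179 (SE; adjusted p = 0.0887 in edgeR). Mrpl34, Mrpl36, Mrps21 and Mrps18c had log2 fold changes of 0.39, 0.31, 0.39 and 0.32, with edgeR adjusted p of 0.113, 0.135, 0.137 and 0.161. The widest spread within groups was that of Mrpl20, Mrps16, Mrpl14, Mrpl33 and Mrps6, with an SD of log2 CPM of 0.33, 0.32, 0.29, 0.29 and 0.27. Levels ran from 2.98 to 62.3 FPKM with a median of 15.2, the highest being Mrpl18, Mrpl34, Mrpl2 and Mrpl12 at 62.3, 58.5, 52.4 and 51.4 FPKM and the lowest Mrpl32, Mrpl1 and Mrpl23 at 2.98, 4.36 and 4.73 FPKM.

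The KEGG term leaves out many mitochondrial subunits, and 40 further rows of the table were followed beside it. Of these, 0 rose (against 9.09% of all genes tested) and 1 fell (2.5%, against 7.21%), with a median log2 fold change of 0.05. At an unadjusted p under 0.05, 2 were higher and 1 lower (16.7% and 16% of all genes tested), and DESeq2 called 0 higher and 1 lower (10.5% and 8.84%). The gene that fell was Mrps34, with 52.4, 39.5 and 30.3 CPM in the miR-423-5p libraries and 60.8, 63.5 and 68.3 CPM in the control libraries (log2 fold change -0.66 ± 0.182 SE, edgeR adjusted p = 0.0475). Its groups did not overlap, and among the fits that leave out a library the call was kept without miR-423-5p 1 and lost in the other 5. The count that rose was 6 of 40 when miR-423-5p 2 was left out (12.6% of all genes rose) and 1 when control 3 was (6.18%). Of the 2 rows of the term with other symbols, Rsl24d1, whose protein takes part in assembly of the large subunit, had 32.4, 40.9 and 32.3 CPM in the miR-423-5p libraries and 41.9, 44.3 and 51.4 CPM in the control libraries (log2 fold change -0.38, edgeR adjusted p = 0.0833). Gm4925 was under 1 CPM in all libraries (log2 fold change -1.51, edgeR adjusted p = 0.144).

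**Figure D5:**
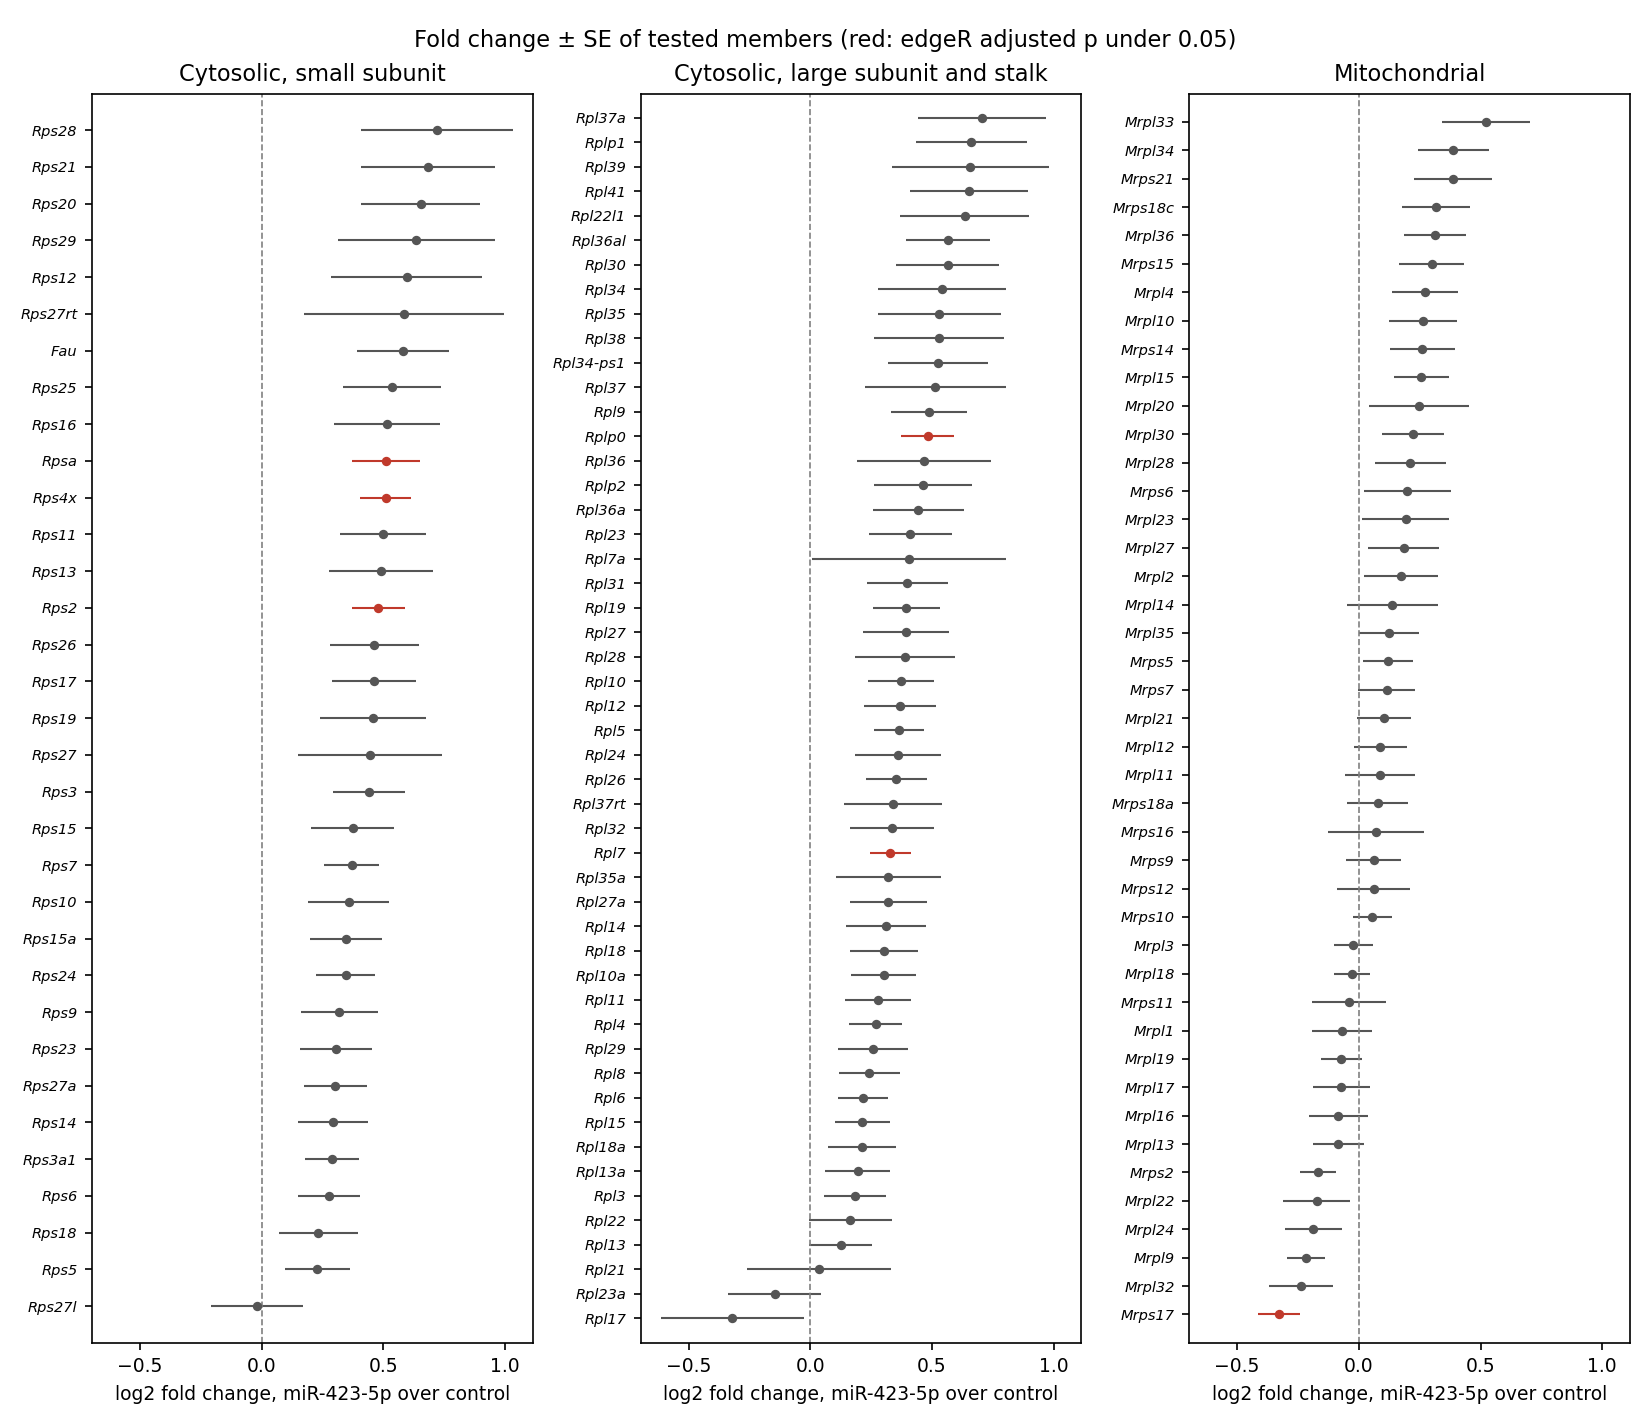
Log2 fold change, miR-423-5p over control, with its SE for the tested cytosolic and mitochondrial members, a few of them not drawn, ranked within small subunit (left), large subunit and stalk (centre) and mitochondrial (right) genes; red marks an edgeR adjusted p under 0.05. Over all tested members the estimates are above 0 for 82 of 85 cytosolic and 29 of 43 mitochondrial genes.

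Ribosome biogenesis genes, whose products process ribosomal RNA and assemble the subunits, had estimates below 0 in 74 of 97 cases. With the mimic 0 rose (against 9.09% of all genes) and 14 fell (14.43%, against 7.21% of all genes), with a median log2 fold change of -0.13; at an unadjusted p under 0.05, 3 were higher and 28 lower (16.7% and 16% of all genes tested), and DESeq2 called 1 higher and 18 lower (10.5% and 8.84%). For 38 every miR-423-5p library lay below every control, and for 4 above (19.6% and 18.8% of all genes tested). Dkc1, the pseudouridine synthase of small nucleolar particles, had 43.1, 49.0 and 42.3 CPM in the miR-423-5p libraries and 68.9, 79.8 and 81.4 CPM in the control libraries. Its groups lay far apart, with a log2 fold change of -0.78 ± 0.099 (SE; adjusted p = 0.00305 in edgeR). Nop58, a core protein of the particles that guide methylation of ribosomal RNA, had a log2 fold change of -0.50 (edgeR adjusted p = 0.00516). Rrs1, a large subunit assembly factor, and Mphosph10, of the complex that processes the small subunit RNA, had log2 fold changes of -0.62 and -0.37 (edgeR adjusted p = 0.00865 and 0.0137). The count of genes that fell was 36 with total-count scaling (14.2% of all genes fell) and 9 with no filter (2.47%). It was 2 when control 2 was left out (1.98%), 3 when miR-423-5p 3 was (2.56%), 4 when control 1 was (2.24%), 8 when miR-423-5p 1 or control 3 was (3.16% and 4.67%) and 16 when miR-423-5p 2 was (9.68%).

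In the machinery that transcribes ribosomal RNA, 1 of 17 RNA polymerase I genes rose (5.88%, against 9.09% of all genes tested) and 2 fell (11.76%, against 7.21%). The estimate was below 0 for 13 of the 17, with a median log2 fold change of -0.20. At an unadjusted p under 0.05, 1 was higher and 7 were lower (16.7% and 16% of all genes tested). For 9 every miR-423-5p library lay below every control, and for 2 above (19.6% and 18.8% of all genes tested). Polr1d, a subunit shared with RNA polymerase III, had 209, 168 and 190.2 CPM in the miR-423-5p libraries and 147, 153 and 127 CPM in the control libraries (log2 fold change 0.41, edgeR adjusted p = 0.0394). Nolc1, a nucleolar phosphoprotein, and Ttf1, which ends transcription of ribosomal DNA, fell by 0.36 and 0.54 on the log2 scale (edgeR adjusted p = 0.0288 and 0.031). Taf1d, a subunit of the factor that selects the promoter of ribosomal DNA, was not called (log2 fold change -0.23, edgeR adjusted p = 0.0904). The risen count became 0 when any library other than miR-423-5p 2 was left out (3.04% to 6.18% of all genes rose). The fallen count was 1 when miR-423-5p 2 was left out (9.68% of all genes fell), and it was 0 when miR-423-5p 3 or any control was (1.98% to 4.67%).

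Among 46 translation factors 7 rose (15.22%, against 9.09% of all genes tested) and 1 fell (2.17%, against 7.21%). Pabpc1, the main cytosolic poly(A)-binding protein, had a log2 fold change of 0.64 ± 0.076 (SE; adjusted p = 0.00246 in edgeR), and Tpt1, a highly translated growth protein, one of 0.63 ± 0.093 (SE; adjusted p = 0.00539 in edgeR). Eef1g, a subunit of the complex that recharges elongation factor Eef1a, had a log2 fold change of 0.47 (edgeR adjusted p = 0.0213). Eif4a2, a helicase of the cap-binding complex, fell, with 135, 171 and 149.96 CPM in the miR-423-5p libraries and 235, 226 and 230 CPM in the control libraries (log2 fold change -0.60, edgeR adjusted p = 0.00713). Its highest miR-423-5p value, in miR-423-5p 2, was below every control. The count that rose was 2 when miR-423-5p 1, miR-423-5p 3, control 1 or control 2 was left out (4.82%, 3.91%, 3.88% and 3.04% of all genes rose), 4 when control 3 was (6.18%) and 12 when miR-423-5p 2 was (12.6%). Without miR-423-5p 2, 2 fell (9.68% of all genes).

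Of 41 further genes of mitochondrial translation, 1 rose (2.44%, against 9.09% of all genes tested) and 2 fell (4.88%, against 7.21%). The RNA-binding protein Lrpprc, which stabilizes mitochondrial mRNAs, was not called (log2 fold change 0.22, edgeR adjusted p = 0.0708). Gfm1, an elongation factor of mitochondria, rose by 0.27 on the log2 scale (edgeR adjusted p = 0.0306), and Mrm3 and Mrm1, methyltransferases of mitochondrial ribosomal RNA, fell by 0.64 and 0.36 (edgeR adjusted p = 0.0241 and 0.0485). Leaving out any library other than miR-423-5p 2 gave 0 that rose (3.04% to 6.18% of all genes did). Without miR-423-5p 2 the count was 5 of 41, near the 12.6% of all genes that rose in that fit. The count that fell was 1 when miR-423-5p 1 was left out (3.16% of all genes fell), and it was 0 when miR-423-5p 3 or any control was (1.98% to 4.67%).

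Among 24 growth regulators of ribosome synthesis 4 rose (16.67%, against 9.09% of all genes tested) and 3 fell (12.5%, against 7.21%), and 12 estimates lay on either side of 0. Mdm2, the ubiquitin ligase of p53 that binds Rpl5 and Rpl11, had 152, 164 and 156 CPM in the miR-423-5p libraries and 264, 268 and 237 CPM in the control libraries (log2 fold change -0.70 ± 0.079 SE, edgeR adjusted p = 0.00199). Myc, a transcription factor that drives ribosome synthesis, had 104, 107 and 106 CPM in the miR-423-5p libraries and 149, 155 and 164 CPM in the control libraries (log2 fold change -0.56 ± 0.069 SE, edgeR adjusted p = 0.00274). In both genes every miR-423-5p library lay below every control, miR-423-5p 2 included. Eif4ebp2, a repressor of cap-dependent translation, and Tsc2, an inhibitor of mTOR signalling, rose by 0.44 and 0.51 on the log2 scale (edgeR adjusted p = 0.00505 and 0.00516). The others that rose were Rptor, a subunit of the mTOR complex that promotes growth, and Mycn, a relative of Myc, by 0.59 and 0.92 (edgeR adjusted p = 0.00528 and 0.0187). Max, the partner with which Myc binds DNA, fell by 0.25 (edgeR adjusted p = 0.0446).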

How the data were processed

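Per the labels' protocols, mRNA selected with oligo(dT) beads was made into 6 libraries whose second strand was marked with dUTP, and read from both ends. The authors deposited, per the file headers, a whole-number count and an FPKM value per gene and library. Cutadapt 1.9, HISAT2 2.2.1, StringTie 2.1.6, DESeq2, edgeR and GRCm38 are named without a role, per the submitters' processing notes. Settings for counting and strand: not given in the sources used here. Genes that overlap or have near-identical copies are therefore uncertain. No row lacks a gene.

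In R 4.3.3, edgeR 4.0.16 was run on the deposited counts of all genes (filterByExpr, TMM scaling, then glmQLFit and glmQLFTest on the group only), with Benjamini-Hochberg adjustment over 18103 genes and a threshold of 0.05, and the members were read from that fit. SE is the log2 fold change over the square root of F. CPM use the TMM-scaled total. FPKM was used for levels per length. Libraries held 63217696 to 78456344 counts; a gene at 0 could have up to 3 counts (0.0396 to 0.0508 CPM), considering counting error alone. Every pair of libraries differed beyond sampling noise (chi-square test of counts). Members, gene lists and tests were chosen with earlier results of these data known. Named genes are all called members, the 6 with the smallest p, the extremes of level and spread in each class, the paralogs, and up to 4 genes per pathway list by smallest p; some others are named for their pattern, chosen after their values were seen. Some members are counted but not reported by name here. Alternatives were DESeq2 1.42.0, DESeq2 size factors, total-count scaling, no filter, a fit without each library in turn, the replicate number as a block, and limma 3.58.1 on log2 FPKM with pseudocounts of 1 and 0.1 over genes with 1 FPKM or more in 3 libraries.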

Additional observations from a re-analysis of the deposited data

How the results depend on the processing

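The direction of the cytosolic median held under every alternative run (0.18 to 0.57 on the log2 scale), whereas the mitochondrial median was -0.06 with total-count scaling and -0.09 with limma on FPKM at a pseudocount of 0.1. The all-gene median was then -0.18 and -0.14. Counts of calls moved more; why was not tested. With DESeq2, 10.5% of 20807 genes rose and 8.84% fell, against 9.09% and 7.21% of 18103 with edgeR. In the DESeq2 fit 34 of 88 cytosolic genes rose (5 of 85 with edgeR), as did 1 of 43 mitochondrial and 1 of 97 biogenesis genes (0 each with edgeR). Of 24 growth regulators 5 fell (3 with edgeR). With DESeq2 size factors in edgeR, 6 cytosolic genes rose (9.19% of all genes did) and 0 mitochondrial genes outside the term fell (7.05% of all genes did).

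With total-count scaling 4.83% of 18103 genes rose (874) and 14.2% fell (2569). In that fit 1 of 85 cytosolic genes (Rps4x) and 2 of 46 translation factors rose, with 0 RNA polymerase I or mitochondrial translation genes. Those that fell were 3 of 43 mitochondrial, 36 of 97 biogenesis and 9 of 17 RNA polymerase I genes. Also lower were 4 of 46 translation factors, 6 of 41 mitochondrial translation and 7 of 24 growth regulator genes. Without the filter 3.55% of 30768 genes rose (1093) and 2.47% fell (759). Then 1 of 88 cytosolic genes and 2 of 46 translation factors rose, with 0 RNA polymerase I or mitochondrial translation genes. Those that fell were 9 of 97 biogenesis and 1 of 41 mitochondrial translation genes. No RNA polymerase I gene fell, and no mitochondrial gene in or outside the term. With limma on FPKM at pseudocounts of 1 and 0.1, 6.55% and 6.5% of 11976 genes rose (784 and 778). The shares that fell were 19.2% and 18.9% (2301 and 2263). At both pseudocounts 2 of 46 translation factors rose, with 0 cytosolic, RNA polymerase I or mitochondrial translation genes. Those that fell at both were 3 of 43 mitochondrial genes, 2 of 40 outside the term and 10 of 17 RNA polymerase I genes. Also lower at both were 2 of 46 translation factors, 6 of 40 mitochondrial translation and 8 of 23 growth regulator genes. The biogenesis genes that fell numbered 41 and 39 of 97.

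Leaving out each library gave 0 to 59 cytosolic genes that rose, 0 to 12 mitochondrial that rose and 0 to 1 that fell, and outside the term 0 to 6 that rose and 0 to 1 that fell. Biogenesis genes ranged from 0 to 4 risen and 2 to 16 fallen, and RNA polymerase I genes from 0 to 1 and 0 to 2. Translation factors ranged from 2 to 12 and 1 to 2, and mitochondrial translation genes from 0 to 5 and 0 to 2. Over all genes 570 to 2386 rose (3.04% to 12.6%) and 372 to 1836 fell (1.98% to 9.68%). The highest counts of risen members came without miR-423-5p 2. The difference in cytosolic share of counts ranged from 0.425 to 1.13 percentage points, miR-423-5p minus control. The difference in the mitochondrial share, -0.0094 points with all libraries, was 0.0055 without miR-423-5p 2.

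The groups share replicate numbers. Deviations from the group mean correlated at 0.133, 0.013 and 0.084 for same-numbered libraries 1, 2 and 3, and at -0.135 to 0.07 for the other pairs. For miR-423-5p 1 and 3 the same-numbered control gave the highest value, and for miR-423-5p 2 control 3 did, at 0.035. Deviations in a group of 3 sum to 0, so these values cannot decide whether libraries were paired. With the replicate number as a block, 7.56% of all genes rose and 5.76% fell, 4 cytosolic genes rose and 0 mitochondrial genes fell; 8 biogenesis, 1 RNA polymerase I and 1 mitochondrial translation genes fell, 3 translation factors rose and 0 RNA polymerase I or mitochondrial translation genes rose.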
